A study of Mus musculus with 10 samples.

Results

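A set of 6 genes was followed across 10 libraries of mouse tumour neutrophils: Parp9, Parp10, Parp11, Parp12, Parp14 and Dtx3l, which are 6 of the 55385 mouse genes in the count table. They were chosen by name as PARP family members known to be induced by interferon, together with Dtx3l, the partner of Parp9. The choice need not cover every such PARP. The 6 genes were matched by Ensembl identifier to GENCODE M21. All 6 were counted in every library, with 143 to 2024 counts per gene and library, and all 6 passed the filter on low counts.

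PARP enzymes move ADP-ribose from NAD onto proteins, and the members studied here, where they are active, attach single units rather than chains. Interferons signal through receptors, JAK kinases and transcription factors such as Stat2 and Irf9 to switch on antiviral genes, and these PARPs belong to that programme. Neutrophils are short-lived granulocytes that can take on an interferon-stimulated state in tumours.

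The neutrophils carried the Tomato reporter of CatchupIVM-red mice, in which a Ly6g allele drives the label, and came from squamous cell carcinoma (SCC) grafts. The grafts were either the parental Sox2low cells, called control here, or Sox2Hi cells, with Sox2 being a stem cell transcription factor. The sample descriptions mark every library C57 and name the control graft GFP. Tumours were left naive or were treated with an antibody to PDL1 and a CD40 agonist, which gave, for each graft, 3 libraries from naive and 2 from treated tumours. The study asked whether Sox2 in the tumour cells limits the response of neutrophils to interferon. All treated tumours had both agents, so their effects cannot be told apart, and the labels do not give the sex or age of the hosts, the number of clones behind each graft or whether replicates are separate mice. P-values therefore measure the spread between these libraries, which may be technical in part. Counts of the Y-linked gene Ddx3y, given below, differed widely within every group. The libraries of a group are therefore not all repeats of the same RNA sample.

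The libraries held 13815734 to 22986193 counts assigned to genes. The tdTomato transcript was present in each, at 135 to 514 counts. All 20 neutrophil markers were detected in every group, although Elane had 0 counts in its lowest library. They summed to 1.52% to 3.25% of counts, with Il1r2 the largest part in every group. Keratinocyte markers summed to 0.131% to 0.330% in naive and 0.0546% to 0.165% in treated tumours. Ly6g itself was low, at 1.57 to 3.53 CPM (counts scaled to a fixed library size) in naive libraries, 14.2 to 20.6 in control treated and 5.13 to 9.06 in Sox2Hi treated libraries. Sox2, which the label describes in the grafted cells and not in neutrophils, was at 1.55 to 2.10 CPM in control and 0.758 to 1.46 in Sox2Hi naive libraries, lower where the graft is labelled high, and at 0.252 to 0.888 and 0.895 to 0.966 in treated libraries. Levels this low in neutrophil RNA do not check the graft label. The Y-linked gene Ddx3y had 4 to 8 counts in 4 libraries and 1007 to 6618 in 6, with both kinds in every group. In bulk RNA, fewer cells of a type and less RNA per cell cannot be told apart.

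The size of every comparison depended on how libraries were scaled. Values are in CPM after TMM scaling (trimmed mean of M-values) over all 29648 genes that passed the filter, called all-gene scaling. Each comparison was also fitted with factors from the 11274 genes at a mean of at least 5 CPM, called expressed-gene scaling. The 2 control treated libraries had all-gene factors of 0.630 and 0.589, and the others 0.930 to 1.40. Reads on 1464 receptor genes that neutrophils are not known to use were also less dense there, at 2.51 and 2.78 counts per kb against 4.48 to 8.85 in the other libraries. Moving from all-gene to expressed-gene scaling shifted the median gene's log2 fold change by -0.55 for treatment in control tumours, 0.27 for treatment in Sox2Hi tumours, -0.37 and 0.45 for the graft comparison in naive and treated tumours, and 0.82 for the interaction. Which scaling is closer to the cells was not tested.

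Parp9 and Dtx3l encode partners. Dtx3l is an E3 ubiquitin ligase of the Deltex family, and Parp9 is a macrodomain protein that binds it. The genes lie head to head on chromosome 16 (GRCm38), with Parp9 (ENSMUSG00000022906) on the plus strand at chr16:35938470-35972605 and Dtx3l (ENSMUSG00000049502) on the minus strand at chr16:35926511-35939151. Their exons share 458 bases at the 5′ ends, and since the strand setting is not given in the sources used here, reads there may count for either gene.

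Parp9 was at 19.3, 16.2 and 21.8 CPM in the control naive libraries and at 92.2 and 55.9 in the control treated libraries. In Sox2Hi tumours it was at 18.8, 22.2 and 17.2 CPM in naive and at 34.6 and 45.9 in treated libraries. Every treated library lay above every naive library, and with all-gene scaling the control treated libraries lay above the Sox2Hi treated ones. With expressed-gene scaling the 2 treated groups overlapped, at 79.4 and 45.0 CPM in control and 39.4 and 51.8 in Sox2Hi tumours. Dtx3l was at 18.5, 22.8 and 18.9 CPM in naive and 83.4 and 64.9 in treated control tumours, and at 21.9, 23.7 and 17.1 CPM in naive and 49.8 and 54.7 in treated Sox2Hi tumours. The 4 groups stood in the same order as for Parp9, with the naive groups overlapping. Per kb of exon, the ratio of Parp9 to Dtx3l was 1.14 ± 0.27 (SD, n = 3) in naive and 1.16 ± 0.20 (n = 2) in treated control tumours. In Sox2Hi tumours it was 1.09 ± 0.086 (n = 3) when naive and 0.901 ± 0.12 (n = 2) when treated. Group means of the ratio thus ran from 0.901 to 1.16, and single libraries from 0.815 to 1.35. In Sox2Hi tumours both treated ratios, 0.815 and 0.987, lay below the naive ones, at 1.01 to 1.18.

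Parp14, a large macrodomain mono-ADP-ribosyltransferase known for its part in interleukin 4 signalling, lies near the pair on the same chromosome, on the minus strand at chr16:35832874-35871544 (ENSMUSG00000034422). Control tumours gave 26.0, 33.8 and 25.0 CPM when naive and 166 and 149.7 when treated. Sox2Hi tumours gave 30.1, 30.9 and 24.9 CPM when naive and 64.4 and 75.4 when treated. The naive groups overlapped, the Sox2Hi treated libraries stood above them, and the control treated libraries stood above all others.

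Parp10, a mono-ADP-ribosyltransferase with ubiquitin-binding motifs, is on the minus strand at chr15:76231174-76243441 (ENSMUSG00000063268), where 205 exonic bases are shared with Plec. Its levels were 7.14, 8.95 and 8.91 CPM in naive and 54.1 and 36.0 in treated control tumours, and 8.59, 10.2 and 8.12 CPM in naive and 23.9 and 22.3 in treated Sox2Hi tumours. It was low and overlapping in both naive groups and ordered like Parp14 in the treated groups.

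Parp12, a CCCH zinc finger mono-ADP-ribosyltransferase with antiviral activity, is on the minus strand at chr6:39086410-39118349 (ENSMUSG00000038507). It was at 9.94, 10.1 and 12.1 CPM in naive and 36.2 and 24.9 in treated control tumours, and at 11.2, 12.0 and 12.7 CPM in naive and 18.7 and 17.9 in treated Sox2Hi tumours. The 2 control treated values lay far apart, and the lower of them still exceeded the Sox2Hi treated ones. Parp11, a WWE domain mono-ADP-ribosyltransferase found at the nuclear envelope, is on the plus strand at chr6:127446840-127494261 (ENSMUSG00000037997). Naive control tumours gave 9.14, 8.22 and 7.05 CPM and treated ones 27.5 and 29.5, while naive Sox2Hi tumours gave 8.34, 11.5 and 9.52 CPM and treated ones 16.1 and 14.1. With all-gene scaling both genes again had overlapping naive groups, intermediate Sox2Hi treated libraries and the highest values in control treated libraries.

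**Figure D1:**
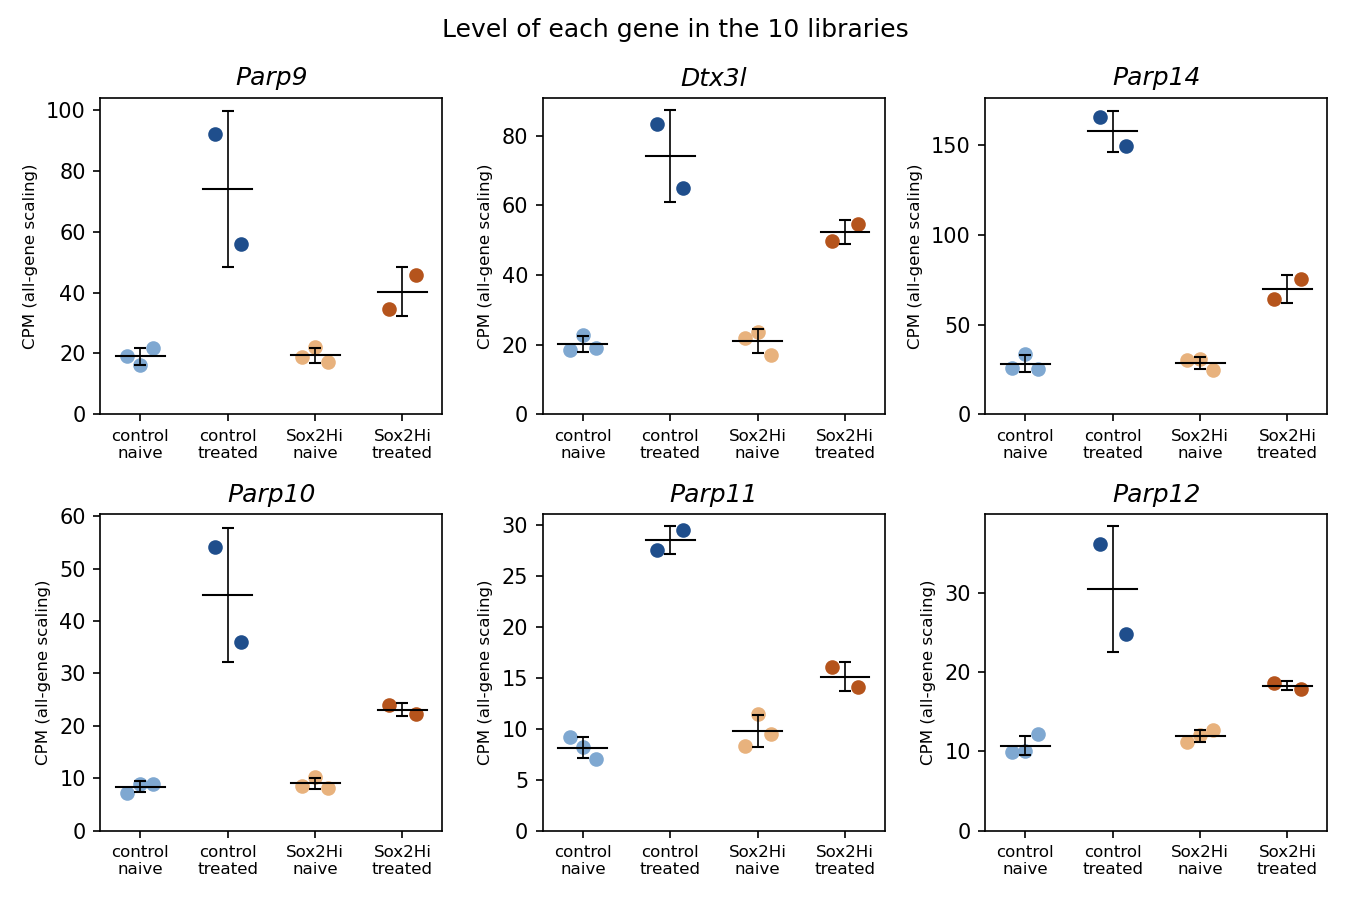
Level of the 6 genes in CPM (all-gene scaling, linear axes from 0) in each library, as points by group, with the group mean (line) and SD (bar). In every panel both treated groups lie above both naive groups, and the control treated libraries lie highest, at 27.5 to 29.5 CPM for Parp11 and 149.7 to 166 for Parp14.

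Parp11 and Parp12 are shown with the 250 bases before their RefSeq starts (GRCm38.p6, given 5′ to 3′ on the gene's strand), because these 2 genes had the smallest changes in Sox2Hi tumours and Parp11 starts at more than one place. Windows from 250 bases before to 50 after a start were held for 3 of the 6 genes, Parp11, Parp12 and Dtx3l. Capitals mark the core of an interferon-stimulated response element (GAAANNGAAA, read on both strands) and the core of a gamma-activated site (TTCNNNGAA, the same on both strands).
Parp11 upstream start, chr6:127446590-127446839, plus strand: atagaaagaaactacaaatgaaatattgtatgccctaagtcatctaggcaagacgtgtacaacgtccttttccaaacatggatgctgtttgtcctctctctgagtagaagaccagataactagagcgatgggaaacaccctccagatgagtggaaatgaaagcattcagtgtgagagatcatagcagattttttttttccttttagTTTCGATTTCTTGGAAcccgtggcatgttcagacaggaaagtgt
Parp11 downstream start, chr6:127453377-127453626, plus strand: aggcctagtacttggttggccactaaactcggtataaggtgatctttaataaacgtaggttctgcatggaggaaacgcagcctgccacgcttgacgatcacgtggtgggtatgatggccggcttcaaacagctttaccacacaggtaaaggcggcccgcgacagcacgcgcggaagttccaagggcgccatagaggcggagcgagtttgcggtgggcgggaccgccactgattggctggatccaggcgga
Parp12 start, chr6:39118350-39118599, minus strand: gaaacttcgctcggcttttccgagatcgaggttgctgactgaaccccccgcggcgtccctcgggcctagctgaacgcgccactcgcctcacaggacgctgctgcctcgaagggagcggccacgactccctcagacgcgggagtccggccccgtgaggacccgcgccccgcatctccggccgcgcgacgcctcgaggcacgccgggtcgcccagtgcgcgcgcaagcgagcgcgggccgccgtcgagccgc
The upstream Parp11 window held TTTCGATTTC, the first core on the opposite strand, at bases -44 to -35 from the start, and TTCTTGGAA at -37 to -29. The 2 matches overlap. The first core was found in 3.44% of 32851 mouse promoter windows of this length, the second in 8.30% and both in 0.454%. Neither core was found in the other Parp11 window, in Parp12 or in Dtx3l. A match describes letters only, and the counts per gene do not tell which Parp11 start was used.

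Levels were compared per kb of exon, so that genes of different length can be set side by side. By group mean, the order in both naive groups was Parp9, Dtx3l, Parp14, Parp12, Parp10 and Parp11. Single libraries departed from it, such as control naive replicate 2, with Dtx3l at 3.99, Parp14 at 3.63 and Parp9 at 3.32 CPM per kb. Mean levels in control naive libraries were 3.92 CPM per kb for Parp9, 3.51 for Dtx3l, 3.04 for Parp14, 2.68 for Parp12, 1.95 for Parp10 and 1.16 for Parp11. In control treated libraries Parp14 had the highest mean, at 16.9 CPM per kb. It was followed by Parp9 at 15.2, Dtx3l at 13.0, Parp10 at 10.5, Parp12 at 7.64 and Parp11 at 4.06. In Sox2Hi treated libraries Dtx3l was at 9.13 CPM per kb, Parp9 at 8.26, Parp14 at 7.51, Parp10 at 5.41, Parp12 at 4.58 and Parp11 at 2.15. In both grafts Parp10 and Parp12 changed places with treatment and Parp11 stayed last. By mean, Parp14 moved up to the first place in control tumours and kept the third in Sox2Hi tumours. The first place held in control treated replicate 2 only, since in replicate 1 Parp9 was at 18.9 CPM per kb and Parp14 at 17.8. If reads fell on these genes as densely as on the silent receptor genes, they would make up at most 39.3% of Parp11 reads in a control naive library, 22.0% for Parp10, 18.2% for Parp12, 13.9% for Parp9, 12.7% for Parp14 and 11.5% for Dtx3l. In the control treated libraries that share was at most 5.39%, so the lowest naive levels are the least certain. For Parp11 it reached 23.3% in a Sox2Hi naive and 16.6% in a Sox2Hi treated library.

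The make-up of the set does not depend on the scaling. As a share of the 6 genes' reads per kb within a library, a measure chosen after the values were seen and given without a test, Parp14 averaged 18.7% in naive and 25.5% in treated control tumours, and 17.9% and 20.3% in Sox2Hi tumours. Parp10 averaged 12.0% and 15.5% in control, and 12.2% and 14.7% in Sox2Hi tumours. For both genes all 4 treated libraries lay above every naive library of the same graft. The margin was small for Parp14 in Sox2Hi tumours, with 19.1% in naive replicate 1 and 19.6% in treated replicate 1. Shares within a library add up to the whole, so a larger share of some genes lowers that of others. In share Parp12 went the other way, with 16.5% and 11.3% in control and 17.6% and 12.4% in Sox2Hi tumours. All 4 treated libraries lay below every naive library of their graft, although the CPM of Parp12 was higher in the treated ones. Parp11 lay below in 3 of 4 treated libraries, or 2 of 4 after subtracting the density on silent receptor genes. Dtx3l differed by graft: its mean share was 21.6% in naive and 19.3% in treated control tumours, but 21.2% in naive and 24.6% in treated Sox2Hi tumours. Parp9 averaged 22.2% to 24.1% in all 4 groups.

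**Figure D2:**
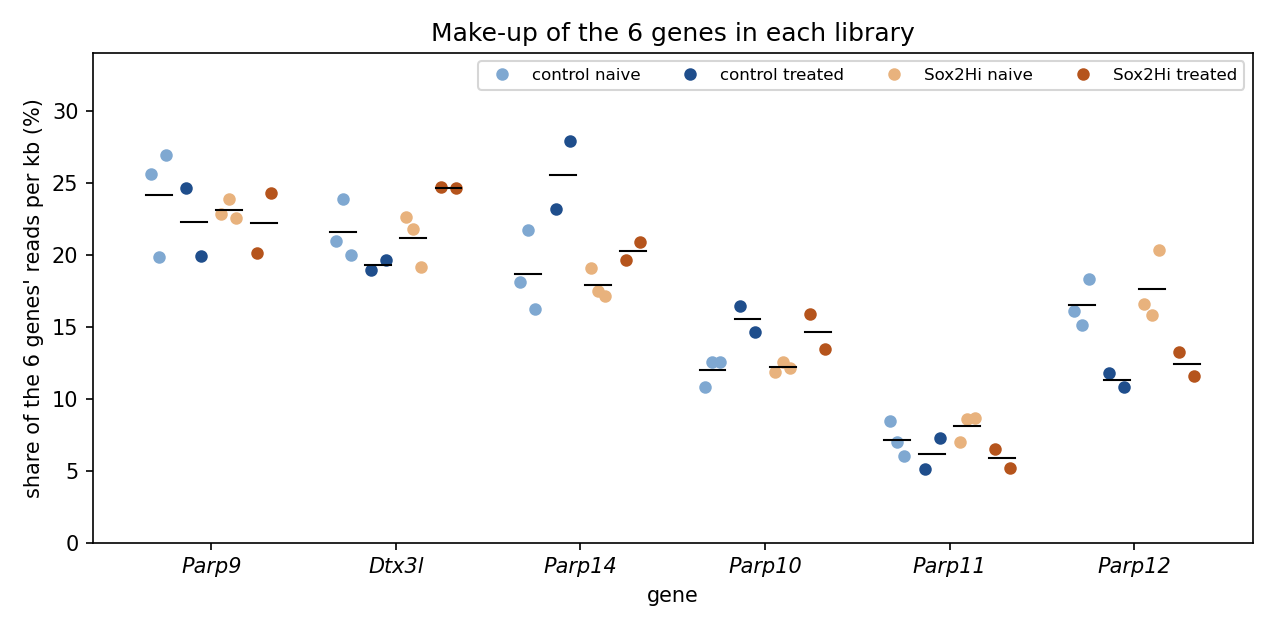
Share of the 6 genes' summed reads per kb held by each gene, in percent, for each library (points by group, line at the group mean). Parp14 and Parp10 hold a larger share in treated than in naive libraries of the same graft, and Parp12 a smaller one, at means of 11.3% and 12.4% in treated against 16.5% and 17.6% in naive libraries.

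In control tumours all 6 genes rose with treatment. The largest rise was that of Parp14, 5.58-fold (log2 fold change 2.48, SE 0.19, edgeR adjusted p = 8.0e-06), followed by Parp10 at 5.40-fold (2.43, SE 0.21, adjusted p = 1.4e-05). Parp9 rose 3.88-fold (1.96, SE 0.24) and Dtx3l 3.69-fold (1.88, SE 0.20), with adjusted p of 1.0e-04 and 3.8e-05. Parp11 rose 3.50-fold (1.81, SE 0.19, adjusted p = 4.3e-05) and Parp12 2.84-fold (1.51, SE 0.20, adjusted p = 1.5e-04). Of all genes tested, 18.7% were called higher in this comparison. The median log2 fold change of the 6 genes was 1.92 against -0.30 over all genes, and 1.36% to 6.72% of genes rose more than the individual members. All 6 had every treated library above every naive library, as did 23.7% of genes.

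With expressed-gene scaling the 6 calls held and the sizes were smaller. Parp14 then rose 3.77-fold (log2 1.91) and Parp10 3.70-fold (1.89). Parp9, Dtx3l and Parp11 were at log2 fold changes of 1.43, 1.33 and 1.25, and Parp12 at 0.97, with edgeR adjusted p from 1.4e-04 to 0.0017. Under that scaling 24.1% of genes were called higher, and the median of the set exceeded that of all genes by 1.56 on the log2 scale, against 2.22 with all-gene scaling. With library totals alone Parp12 was not called, at 0.45 (adjusted p = 0.077).

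Several cell markers moved in the same libraries. Of 19 neutrophil markers tested, 18 rose with treatment in control tumours, and their sum went from 1.52% to 2.39% of counts in naive to 3.15% to 3.25% in treated libraries. Of 12 T and NK cell markers 7 rose, at a sum of 0.00635% to 0.0111% in naive and 0.0107% to 0.0357% in treated libraries. Fibroblast and endothelial markers summed to 0.0363% to 0.0953% in naive and 0.00983% to 0.0120% in treated libraries, and erythroid markers to 0.0628% to 0.166% and 0.00381% to 0.0227%. Keratinocyte markers summed to 0.131% to 0.285% in naive and 0.0546% to 0.0924% in treated libraries, and 1 of 10 (Krt18) was called lower with all-gene scaling and 5 of 9 with expressed-gene scaling. Of 15 macrophage and dendritic cell markers 6 rose and 1 (Cd209a) fell with all-gene scaling (median 0.69), led by Cd68 at 2.15 (edgeR adjusted p = 7.6e-05). With expressed-gene scaling 2 of 12 rose, Cd68 and Csf1r, and Cd209a fell. As a share of raw counts their sums overlapped, at 0.0956% to 0.140% in naive and 0.0861% to 0.128% in treated libraries. B and plasma cell markers overlapped too, at 0.00678% to 0.0124% and 0.00289% to 0.00921%, and 0 of 6 were called. Of the fibroblast and endothelial markers 4 of 10 were called lower, and of the erythroid markers 1 of 6 (Hba-a1). With expressed-gene scaling these counts were 6 of 8 and 3 of 4. The part of any of these in the rise of the 6 genes was not tested.

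In Sox2Hi tumours 4 of the 6 genes rose with treatment, against 1.79% of all genes called higher. Parp10 rose 2.57-fold (log2 1.36, SE 0.21, edgeR adjusted p = 0.0078), Dtx3l 2.49-fold (1.32, SE 0.20, adjusted p = 0.0062), Parp14 2.44-fold (1.29, SE 0.19, adjusted p = 0.0055) and Parp9 2.07-fold (1.05, SE 0.24, adjusted p = 0.037). Parp11 and Parp12 did not pass, at log2 fold changes of 0.63 (95% interval 0.21 to 1.05, adjusted p = 0.091) and 0.61 (0.18 to 1.04, adjusted p = 0.10). All 6 nevertheless had both treated libraries above the 3 naive ones, as did 22% of genes. The median of the set was 1.17 against 0.070 over all genes.

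Expressed-gene scaling raised these values and called all 6 genes, with 15% of genes called higher. Parp10 was then at 1.63, Dtx3l at 1.58, Parp14 at 1.55, Parp9 at 1.32, Parp11 at 0.90 and Parp12 at 0.88, with edgeR adjusted p from 0.0016 to 0.014. The calls rested on few libraries. Without Sox2Hi treated replicate 2 none of the 6 was called with all-gene scaling, where Parp10 was at 1.40 (adjusted p = 0.079), Dtx3l at 1.24 (0.097), Parp14 at 1.16 (0.097) and Parp9 at 0.82 (0.38), and 3 were called with expressed-gene scaling. Parp9 also missed the threshold when control naive replicate 1, any single Sox2Hi naive replicate or Sox2Hi treated replicate 1 was left out, at 0.97 to 1.25 (adjusted p 0.064 to 0.16). In these tumours 7 of 19 neutrophil markers and 1 of 12 T and NK cell markers (Nkg7) rose, with sums of 1.56% to 2.10% in naive and 1.97% to 2.28% in treated libraries for the first and 0.00488% to 0.0190% and 0.0153% to 0.0301% for the second. Without overlap between naive and treated libraries, marker sums were lower with treatment for fibroblast and endothelial cells (0.0604% to 0.0889% against 0.0129% to 0.0372%), erythroid cells (0.0308% to 0.0694% against 0.00255% to 0.00544%), B and plasma cells (0.0168% to 0.0809% against 0.00228% to 0.0118%) and keratinocytes (0.223% to 0.330% against 0.111% to 0.165%). Their part in the result was not tested.

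Between the grafts in naive tumours none of the 6 genes was called. The log2 fold changes of Sox2Hi against control lay between 0.02 for Parp14 and 0.26 for Parp11 with all-gene scaling, and between -0.37 for Parp14 and -0.12 for Parp11 with expressed-gene scaling, so that the direction of each gene changed with the scaling. That edgeR made no call held under both scalings, while 1.87% and 14% of genes were called. The intervals still allow a difference: for Parp14 the 95% interval ran from -0.35 to 0.39, and for Parp9 from -0.45 to 0.50. With expressed-gene scaling these intervals ran from -0.80 to 0.07 and from -0.81 to 0.13, and Parp9 and Parp12 had every Sox2Hi naive library below every control naive one, as did 21.8% of genes. Naive libraries of the same replicate number were compared as pairs, and pair by pair the scaling again decided the direction. With expressed-gene scaling Parp9, Parp10, Parp12, Parp14 and Dtx3l were lower in the Sox2Hi library of all 3 pairs and Parp11 in 2 of 3, where 32.7% of genes were lower in all 3. Parp14, for example, was at 31.5, 45.5 and 27.8 CPM in control and at 29.3, 29.3 and 22.5 in Sox2Hi libraries on that scale. With all-gene scaling 0 of the 6 genes were lower in all 3 pairs, against 27.9% of genes, and Parp12 was lower in none. The replicate block with expressed-gene scaling called 0 of the 6 genes in edgeR, with Parp14 at -0.36 (adjusted p = 0.15). Marker sums in naive libraries were higher in Sox2Hi than in control tumours, without overlap, for macrophages and dendritic cells (0.142% to 0.196% against 0.0956% to 0.140%) and for B and plasma cells (0.0168% to 0.0809% against 0.00678% to 0.0124%), and their part in these values was not tested.

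In treated tumours 5 of the 6 genes were lower in Sox2Hi than in control tumours with all-gene scaling, against 9.57% of genes called lower. Parp14 differed most, 2.26-fold lower (log2 -1.17, SE 0.21, edgeR adjusted p = 0.0086). Parp10 was at -0.96 (SE 0.23, adjusted p = 0.022), Parp11 at -0.92 (SE 0.21, adjusted p = 0.020), Parp9 at -0.88 (SE 0.26, adjusted p = 0.048) and Parp12 at -0.74 (SE 0.22, adjusted p = 0.045). Dtx3l did not pass, at -0.50 (95% interval -0.98 to -0.03, adjusted p = 0.13). For all 6 genes both Sox2Hi treated libraries lay below both control treated libraries, as for 27.3% of genes.

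None of these calls held with expressed-gene scaling, under which 5.87% of genes were called lower. All 6 values stayed negative there, from -0.73 for Parp14 (edgeR adjusted p = 0.052) to -0.07 for Dtx3l (adjusted p = 0.88). Of the 6 genes 3 still had no overlap between the groups (Parp10, Parp11 and Parp14), against 26.3% of genes. With library totals alone none was called, and Dtx3l and Parp12 were at 0.23 and 0.0069. Each of the 2 treated groups had 2 libraries, and the all-gene count of 5 fell to 0 without Sox2Hi treated replicate 1, 1 without Sox2Hi treated replicate 2, 2 without control treated replicate 1, and 3 without control naive replicate 1 or any single Sox2Hi naive replicate. Of the neutrophil markers, 11 of 19 were also called lower in Sox2Hi treated libraries, or 6 of 17 with expressed-gene scaling, and their sum was 1.97% to 2.28% against 3.15% to 3.25% of counts in control treated libraries. Marker sums were higher in Sox2Hi treated libraries, without overlap, for keratinocytes (0.111% to 0.165% against 0.0546% to 0.0924%) and for fibroblasts and endothelial cells (0.0129% to 0.0372% against 0.00983% to 0.0120%). Of the macrophage and dendritic cell markers 1 of 15, Cd68, was called lower (-1.36, adjusted p = 0.013), and 0 of 12 with expressed-gene scaling. Their part in the result was not tested.

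The interaction, which compares the effect of treatment between the grafts, was negative for all 6 genes with all-gene scaling, and 4 passed, against 16.2% of genes called lower. The values were -1.19 for Parp14 (SE 0.27, edgeR adjusted p = 0.010), -1.18 for Parp11 (SE 0.28, adjusted p = 0.012), -1.07 for Parp10 (SE 0.30, adjusted p = 0.025) and -0.90 for Parp12 (SE 0.28, adjusted p = 0.036). Parp9 was at -0.90 (SE 0.34, adjusted p = 0.067) and Dtx3l at -0.56 (SE 0.28, adjusted p = 0.14). With expressed-gene scaling none passed and 2.84% of genes were called lower. Parp14 was then at -0.36 (95% interval -1.04 to 0.32), and Dtx3l changed sign to 0.26 (-0.44 to 0.96). The median of the set lay 1.21 below that of all genes with all-gene scaling and 0.21 below with expressed-gene scaling. The all-gene count was 2 without control naive replicate 1, control treated replicate 1, Sox2Hi naive replicate 2 or either Sox2Hi treated replicate. Of the neutrophil markers, 14 of 19 were also called lower in the interaction with all-gene scaling (median -1.57, against -0.99 for the 6 genes). With expressed-gene scaling 0 of 17 were called, although all 17 values were negative (median -0.80). Of the macrophage and dendritic cell markers 4 of 15 were called lower in the interaction with all-gene scaling (Cd68, Adgre1, Csf1r and Itgax) and 0 of 12 with expressed-gene scaling, at medians of -0.88 and -0.13. The part of either list in the result was not tested.

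**Figure D3:**
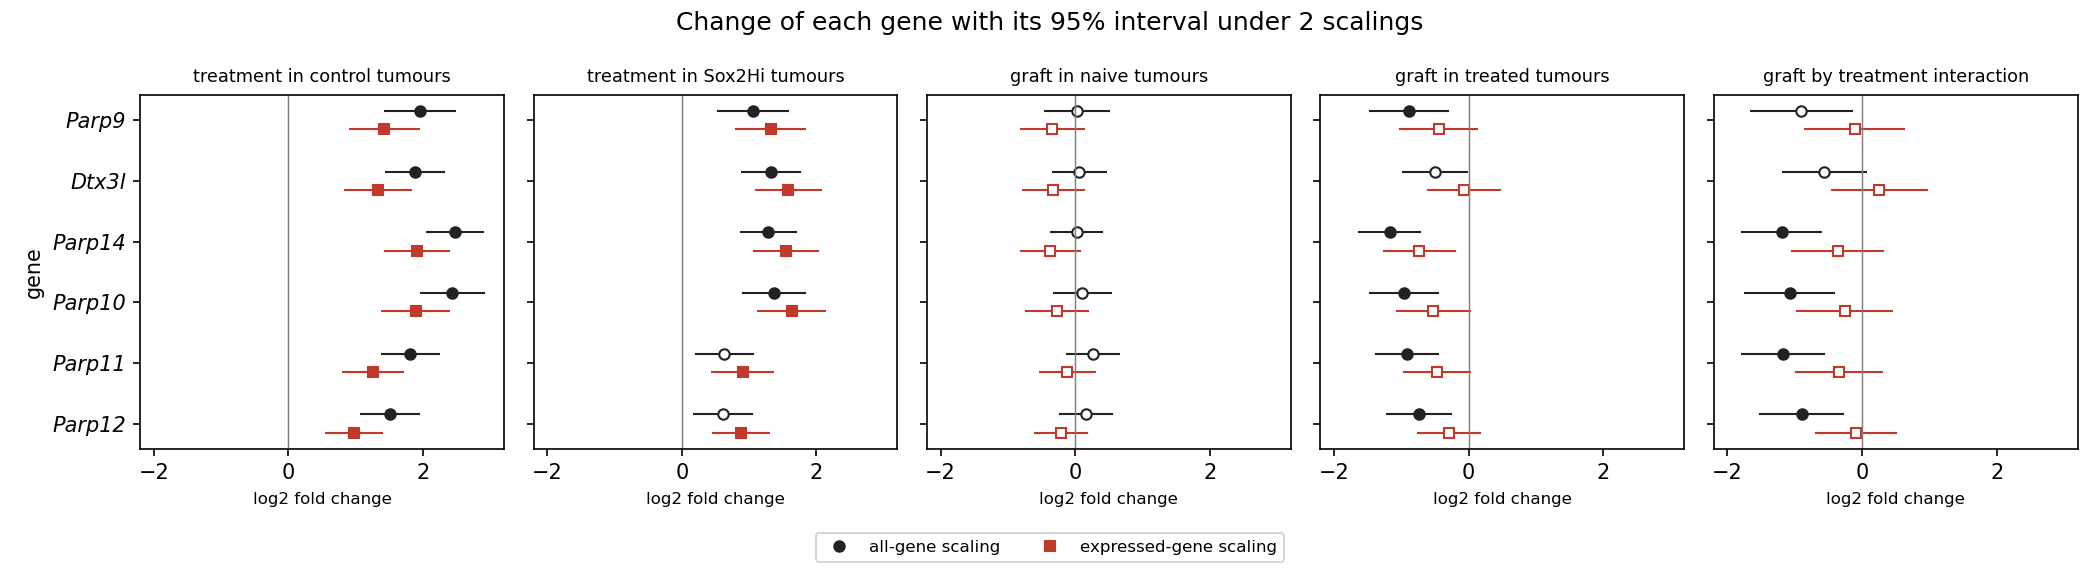
Log2 fold change of each gene with its 95% interval in the 5 comparisons, with all-gene scaling (black circles) and expressed-gene scaling (red squares), filled where the edgeR adjusted p was under 0.05. Both treatment comparisons lie to the right of 0 under both scalings, whereas values in treated tumours and in the interaction lie nearer to 0 with expressed-gene scaling, such as -0.36 against -1.19 for the interaction of Parp14.

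Summed over the set, the 6 genes made up 0.0121% ± 0.0016 (SD, n = 3) of counts in naive and 0.0251% ± 0.0054 (n = 2) in treated control tumours. They made up 0.0107% ± 0.0011 (n = 3) in naive and 0.0223% ± 0.0013 (n = 2) in treated Sox2Hi tumours. As CPM with all-gene scaling the sums were 94.7 ± 5.09, 410.0 ± 69.6, 99.7 ± 10.5 and 219 ± 16.1 in the same order. The sum in treated tumours thus differed between the grafts in scaled CPM and was close to equal as a share of all counts.

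Genes with the most similar profile were found by the root mean square difference of log2(CPM + 1), centred on each gene's mean over the 10 libraries, among 7101 genes. They share libraries and scaling with the members, and the ranking is a description. For Parp14 the closest were Oas1a (0.116), Cd52 (0.118) and Samhd1 (0.120), of which Oas1a makes the signal for RNase L and Samhd1 degrades deoxynucleotides. Closest to Parp10 were Oasl2 (0.150), Irf1 (0.157) and Irf7 (0.166). For Dtx3l they were Sema4a (0.142), Oas3 (0.155) and Irf1 (0.166), and for Parp9 they were Apobec1 (0.169), the immunoproteasome subunit Psmb8 (0.179) and Nlrc5 (0.192), an activator of MHC class I genes. Parp12 and Parp11 had other neighbours: Xpo6 (0.104), Ogfr (0.107) and Khdc4 (0.135) for Parp12, and Twistnb (0.121), Stx7 (0.128) and Rnf34 (0.140) for Parp11.

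None of the 3 closest genes of any member was itself a member. Dtx3l ranked 19th for Parp9 (0.229), and Parp9 ranked 32nd for Dtx3l. Parp14 was the 8th closest gene to Parp10 (0.188). Parp11 and Parp12 differed from each other by 0.237 and from Parp14 by 0.414 and 0.499, the widest gap within the set.

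Parp9, Dtx3l and Parp14 sit among 12 other protein-coding genes within 250 kb. In control tumours 8 of the 12 rose with treatment with all-gene scaling, and 7 of 11 with expressed-gene scaling, which called Sema5b lower (-0.92, adjusted p = 0.0046). The largest rises were in the stefin genes at one end of the window, cysteine protease inhibitors with near-identical copies whose counts are uncertain: 2010005H15Rik, which rose most, and Stfa2l1, at a log2 fold change of 4.36. Kpna1, the next gene after Parp9, encodes a nuclear import receptor, and was at 1.07 (SE 0.17, edgeR adjusted p = 7.4e-04). Hspbap1, on the other side of Parp14, was at 0.60 (0.05 with expressed-gene scaling), and Sema5b, at the far end, was at -0.36 and did not pass. In Sox2Hi tumours 4 of the 12 rose, all of them stefin genes, while Kpna1 was at -0.40 (adjusted p = 0.22) and Hspbap1 at 0.25 (adjusted p = 0.39). The interaction of Kpna1 was -1.46 (adjusted p = 0.0049), or -0.64 (adjusted p = 0.076) with expressed-gene scaling. Kpna1 was already higher in naive Sox2Hi than in naive control tumours, by 0.78 (adjusted p = 0.043), or 0.40 (adjusted p = 0.099) with expressed-gene scaling. The interaction of Hspbap1 was -0.35 (adjusted p = 0.25).

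**Figure D4:**
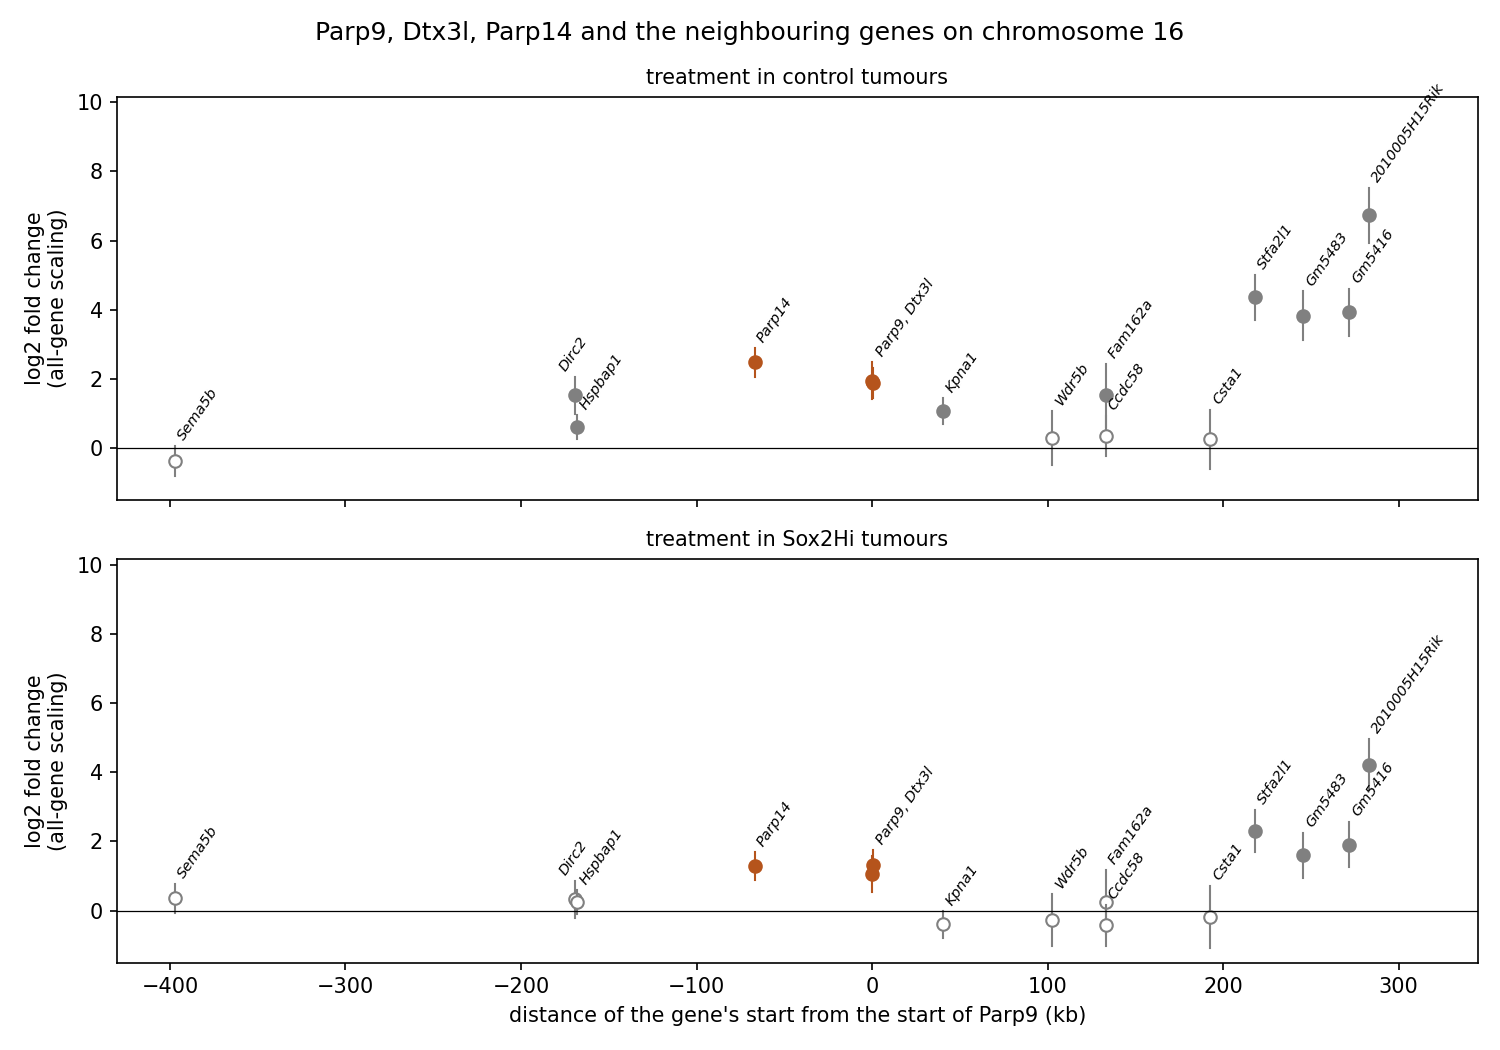
Log2 fold change with treatment (all-gene scaling, bars are 95% intervals, filled where the edgeR adjusted p was under 0.05) against the distance of each gene's start from that of Parp9, in kb, for control (top) and Sox2Hi tumours (bottom). Parp14, Parp9 and Dtx3l (orange) are filled in both panels, whereas Kpna1 is filled in control tumours, at 1.07, and open in Sox2Hi tumours, at -0.40.

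Of 11 other PARP genes tested, 5 rose with treatment in control tumours (Zc3hav1, Tiparp, Parp8, Parp6 and Parp4, median of the list 0.43 on the log2 scale) and none in Sox2Hi tumours (median -0.16). Zc3hav1, the catalytically inactive zinc finger antiviral protein, rose by 1.20 (edgeR adjusted p = 3.8e-04) in control tumours and was at 0.28 (adjusted p = 0.40) in Sox2Hi tumours. Tiparp, a target of the aryl hydrocarbon receptor, rose by 1.18 and was at 0.28, and Parp8 rose by 1.26 and was at 0.24, in the same order. Parp1, the main DNA damage PARP, was at 9.69 CPM in control naive and 7.42 in control treated libraries, with a log2 fold change of -0.39 (adjusted p = 0.21) that became -0.92 (adjusted p = 0.0061) with expressed-gene scaling. Under that scaling 3 of 10 rose and 2 fell in control tumours, namely Parp1 and Tnks2, the second at -0.81, and 1 rose in Sox2Hi tumours, Tiparp at 0.55. No other PARP gene differed between the grafts in naive tumours, and 3 of 11 (Zc3hav1, Parp8 and Tiparp) were lower in treated Sox2Hi tumours with all-gene scaling and 0 of 10 with expressed-gene scaling.

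Of the 4 other Deltex ligases, Dtx4 rose in control tumours (1.61, edgeR adjusted p = 1.1e-04) and was at 0.00 in Sox2Hi tumours, unlike Dtx3l. Dtx1 fell in control tumours, by 0.91 (adjusted p = 0.043). With expressed-gene scaling 2 of the 4 were tested, and 0 were called in Sox2Hi tumours (median 0.33). In the interaction Dtx4 was called lower with all-gene scaling, while expressed-gene scaling called 0 lower and 1 higher. Of 8 genes for proteins that remove or bind ADP-ribose, Oard1 (1.33), Gdap2 (1.27), Adprh (1.19) and Parg (1.06) rose in control tumours and none rose in Sox2Hi tumours. Gdap2, a macrodomain protein of that list, had a negative interaction under both scalings, at -1.54 (adjusted p = 0.0047) and -0.73 (adjusted p = 0.020). Of 9 genes for NAD synthesis 2 rose in control tumours, Nampt (2.69), the rate-limiting enzyme of NAD salvage, and Nmrk1 (2.65), a nicotinamide riboside kinase. With expressed-gene scaling these 2 of 4 rose, and Nmnat1 (-0.92, adjusted p = 0.0089) and Nadsyn1 (-0.81, adjusted p = 0.025) fell. Nampt also rose in Sox2Hi tumours (1.53, adjusted p = 0.0056), from 170.1 to 489.6 CPM, while Nadsyn1, NAD synthetase, fell by 1.52 (adjusted p = 0.026). With expressed-gene scaling 2 of 4 genes of this list rose in Sox2Hi tumours and 1 fell. The interaction of Nmrk1 held under both scalings, at -2.10 (adjusted p = 0.0046) and -1.30 (adjusted p = 0.0034).

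Interferon signalling genes and other interferon-stimulated genes were set beside the members. Of 11 signalling genes 10 rose in control tumours and 2 in Sox2Hi tumours, or 10 and 6 with expressed-gene scaling. Irf1 rose by 2.10 in control and 1.24 in Sox2Hi tumours (edgeR adjusted p = 6.2e-05 and 0.022). Stat2 and Irf9 rose by 2.08 and 1.50 in control tumours and were at 0.89 (adjusted p = 0.052) and 0.49 (adjusted p = 0.13) in Sox2Hi tumours. Of 29 interferon-stimulated genes 27 rose in control tumours (median 2.11) and 19 in Sox2Hi tumours (median 1.07), led by Ifit2 at 3.27 and 2.17. With expressed-gene scaling 26 of 28 rose in both grafts, at medians of 1.55 and 1.36. In the interaction 18 of the 29 genes were called lower with all-gene scaling (median -1.10) and 0 of 28 with expressed-gene scaling (median -0.28), a fit in which edgeR gave 3669 genes an unadjusted p below 0.05. Between the grafts in treated tumours 19 of the 29 genes were lower in Sox2Hi tumours with all-gene scaling, led by Ifit2 at -1.51, and 4 of 28 with expressed-gene scaling, where Ifit2 was at -1.06 (adjusted p = 0.035). Jak2, the kinase with the largest fall among signalling genes in that comparison, was at -1.08 (adjusted p = 0.0098), or -0.63 (adjusted p = 0.060) with expressed-gene scaling. In naive tumours 2 of the 11 signalling genes were called higher in Sox2Hi tumours with all-gene scaling, the interferon receptor chain Ifnar1 at 0.79 and the kinase Jak1 at 0.70 (both adjusted p = 0.044), and none with expressed-gene scaling, where Ifnar1 was at 0.41 (adjusted p = 0.16). Also in naive tumours 0 of the 29 genes differed between the grafts with all-gene scaling and 3 were lower in Sox2Hi tumours with expressed-gene scaling, led by Xaf1 at -0.63 (adjusted p = 0.017). The 6 PARP and Deltex genes had medians of 1.92 and 1.17 with treatment in control and Sox2Hi tumours, beside 2.11 and 1.07 for this list. With expressed-gene scaling their medians were 1.38 and 1.44, beside 1.55 and 1.36 for the list.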

How the data were processed

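RNA-seq libraries were made from low-input total RNA, per the labels. The authors deposited a table of whole-number counts per gene, and the submitters' processing notes name kallisto 0.44.0 and mm10 without giving their role. Strand setting and annotation release are not given in the sources used here. The 96 rows that are no mouse gene (spike-ins and transgenes) entered neither the library sizes nor the tests.

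Counts of all 10 libraries were fitted in edgeR 4.0.16 (R 4.3.3) with quasi-likelihood tests on 4 group means after filterByExpr and TMM, with Benjamini-Hochberg adjustment over all genes tested and a threshold of 0.05. SEs are the log2 fold change over the root of F, and intervals are 95% with the fit's degrees of freedom. The fit was first tested on simulated counts in which a small set of genes was changed, as many up as down. The simulation held no difference in scaling between libraries, so it does not bear on the choice of scaling. Alternatives were expressed-gene scaling, RLE factors, library totals, no filter, DESeq2 1.42.0, limma-voom (limma 3.58.1), replicate blocks, only the groups compared, a Ddx3y covariate, subtraction of the silent receptor gene density, and each library left out.

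The members, gene lists and tests were chosen with earlier results of these data known. Named genes were all 6 members, the called gene of each list with the largest rise or fall in a comparison under either scaling, at a mean of at least 10 CPM over libraries, and Stat2, Irf9, Irf1, Zc3hav1, Tiparp, Parp1, Parp8 and Nampt. One further gene that the rule names is not reported here. Adgre1, Adprh, Cd209a, Dtx1, Elane, Hspbap1, Il1r2, Itgax, Jak1, Nadsyn1, Nmnat1, Parg, Parp4, Parp6, Sema5b and Stfa2l1 were named after their values were seen. Replicate numbers are those of the sample titles. The descriptions number the naive libraries alike but the treated ones differently, as 2 and 3 in control and 1 and 3 in Sox2Hi tumours. Same-numbered naive libraries deviated together (r across genes 0.333 to 0.422), so they were compared as pairs, though no label says why they are alike. Same-numbered treated libraries of the 2 grafts did not deviate together (r = -0.179). Same-numbered naive libraries were also alike in Ddx3y, at 4 and 6, 3854 and 2814, and 1436 and 1007 counts in control and Sox2Hi tumours. The treated ones were not, at 8 and 3980 and at 6618 and 7 counts. The part of host sex in this likeness was not tested. Against same-numbered naive libraries, r was 0.204 to 0.277 for control treated and -0.315 to 0.0225 for Sox2Hi treated libraries. The 2 most similar replicates differed by more than sampling noise (chi-square per degree of freedom 12.5).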

Additional observations from a re-analysis of the deposited data

Results flagged for a closer look

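The difference between the grafts in the effect of treatment was tested by the interaction term in edgeR and passed for 4 genes with all-gene scaling: Parp14 at -1.19 (adjusted p = 0.010), Parp11 at -1.18 (adjusted p = 0.012), Parp10 at -1.07 (adjusted p = 0.025) and Parp12 at -0.90 (adjusted p = 0.036). In both grafts each treated library lay above the naive ones for all 4 genes, with the smaller difference in Sox2Hi tumours. With expressed-gene scaling the values were -0.36, -0.35, -0.26 and -0.09 and none passed.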

How the results depend on the processing

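The number of the 6 genes called was 6 for treatment in control tumours, 4 for treatment in Sox2Hi tumours, 0 between grafts in naive tumours, 5 in treated tumours and 4 for the interaction. Leaving out single libraries gave 6 to 6, 0 to 4, 0 to 0, 0 to 5 and 2 to 5, and with expressed-gene scaling 3 to 6 for treatment in Sox2Hi tumours, 0 to 1 in treated tumours and 0 to 0 for the interaction. In treated tumours 0 were called with expressed-gene scaling, library totals, background subtraction or only the groups compared, 2 with a replicate block by description number, 1 with expressed-gene scaling and the replicate block by title number, and 0 with the 2 treated groups alone and crossed numbers. For the interaction 0 were called with expressed-gene scaling, with or without that block, library totals or background subtraction. The cause was not tested.

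The replicate block by title number alone called 6, 3, 0, 4 and 4, with Parp9 at 1.07 (edgeR adjusted p = 0.057) in Sox2Hi tumours. It changed no call between naive tumours, where same-numbered libraries deviated together. The Ddx3y covariate called 6, 4, 0, 4 and 4, DESeq2 6, 6, 0, 6 and 6, and limma-voom 6, 5, 0, 4 and 4.

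The sign changed in the following cases, none of them called. Between naive tumours, for Parp9, Parp10, Parp11, Parp12, Parp14 and Dtx3l in that order, expressed-gene scaling gave -0.34, -0.27, -0.12, -0.21, -0.37 and -0.32, and with the replicate block -0.34, -0.28, -0.11, -0.21, -0.36 and -0.33. For Parp9, Parp10, Parp12, Parp14 and Dtx3l library totals gave -0.21, -0.14, -0.081, -0.24 and -0.20 and background subtraction -0.31, -0.17, -0.15, -0.34 and -0.29. For Parp9, Parp14 and Dtx3l only the groups compared gave -0.060, -0.062 and -0.023, and the naive libraries alone with the replicate block -0.056, -0.054 and -0.028. Without single libraries Parp9 ran from -0.088 to 0.13, Parp14 from -0.065 to 0.16 and Dtx3l from -0.040 to 0.18. In treated tumours library totals gave 0.0069 for Parp12 and 0.23 for Dtx3l. The interaction of Dtx3l was 0.26 with expressed-gene scaling, with or without the replicate block, 0.43 with library totals and 0.22 with background subtraction, and library totals gave 0.052 for Parp9 and 0.088 for Parp12. With expressed-gene scaling and single libraries left out, values reached 0.075 for Dtx3l in treated tumours, and 0.37, 0.16 and 0.069 for the interactions of Dtx3l, Parp9 and Parp12. The lowest counts were those of Parp10 and Parp11, down to 143 and 144 in control naive libraries.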
